A study of Mus musculus with 12 samples.

Results

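Mex3a-high, Lgr5-high cells of the mouse small intestine were compared with Mex3a-negative, Lgr5-high cells. The populations were taken by their label, 2 arrays each, which gives 4 of the 12 arrays of the series. The series holds 6 populations, in which cells with a high, low or negative level of Mex3a, called Mex3a gates here, were taken with a high or a low level of Lgr5. Each population came from the same 2 biological replicates, named MR793 and MR820. All samples were untreated primary cells, and 2000 cells per sample gave RNA that was amplified for 22 cycles and hybridised to Affymetrix expression arrays. The labels give neither the age, strain or sex of the mice, nor whether a replicate was 1 animal or a pool. They also do not say which reporter or antibody reported the level of Mex3a or Lgr5. Both arrays of MR793 in the comparison lay on strip 1 and both of MR820 on strip 2, so a difference within a replicate is also one within an array strip.

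Lgr5 is a receptor for R-spondin, which strengthens Wnt signals, and it marks the dividing stem cells at the base of the crypt. Mex3a is an RNA-binding protein of the KH-domain family that has been described in a slowly dividing subset of these cells in mice. Stem cell daughters that express the transcription factor Atoh1 become secretory cells (Paneth, goblet and enteroendocrine cells), daughters with active Notch become absorptive enterocytes, and tuft cells, the chemosensory cells of the epithelium, depend on Pou2f3. In RNA from bulk samples, a difference in the number of cells of a type and a difference in RNA per cell cannot be told apart.

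Lgr5 itself was measured at 9.00 (MR793) and 10.21 (MR820) on the log2 scale in Mex3a-high cells, against 10.07 and 9.96 in Mex3a-negative cells. The ranges overlapped, and all 4 values lay above the Lgr5-low populations, which held 6.37 to 8.05. Olfm4, a secreted glycoprotein of crypt base cells, had 12.52 and 13.03 in Mex3a-high cells and 12.96 and 13.08 in Mex3a-negative cells. Mex3a had 6.35 and 5.84 in Mex3a-high cells, against 5.71 and 5.91 in Mex3a-negative cells, so its array value did not separate the gates (adjusted p = 0.505, limma). Its other probe set had 6.38 and 5.31 against 5.57 and 5.02, with overlap as well, and was 0.81 and 0.29 higher within the pairs where the first differed by 0.64 and -0.07.

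The Mex3a-high array of MR793 stood apart from the other 11. Over 17097 genes it correlated with them at 0.892 to 0.914, while those 11 correlated with each other at 0.966 to 0.996. The middle spread of its gene values (the 25th to the 75th percentile) was 2.42 log2 units, against 3.22 to 3.36 on the others. Its nonspecific control probe sets with a GC number of 20 lay at 7.20, against 5.24 to 5.85, and the 3′ minus 5′ difference of the transferrin receptor control was -1.81, against -0.71 to -0.51. Genes were also split by their mean level over the arrays that are not part of the comparison. In the MR793 pair the lowest quartile had a median difference of 0.33 and the highest quartile -0.65. In the MR820 pair these medians were -0.05 and 0.03. Each replicate pair is given apart for this reason.

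**Figure D1:**
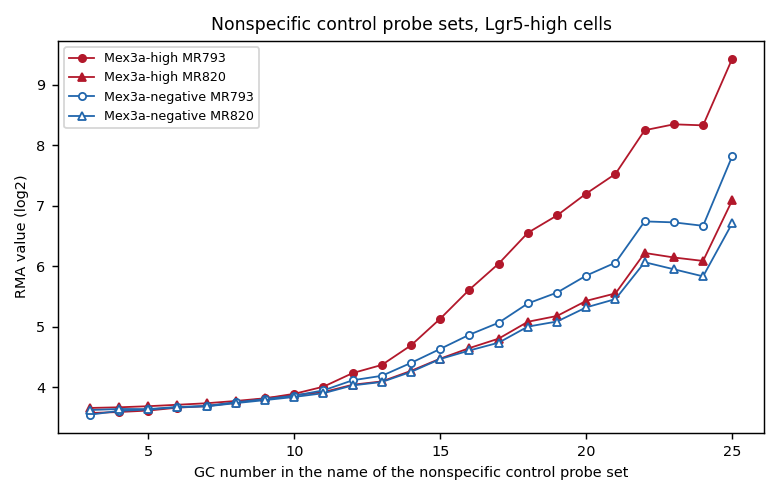
RMA values (log2, vertical axis) of the nonspecific control probe sets against their GC number (horizontal axis) on the 4 arrays of the comparison, with Mex3a-high arrays in red and Mex3a-negative arrays in blue. The Mex3a-high array of MR793 runs above the other 3 at high GC numbers, at 7.20 for GC 20 against 5.43, 5.85 and 5.32.

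The genes that were over 2-fold higher in Mex3a-high cells in both pairs held tuft, endocrine, Paneth and goblet cell genes, and those that were over 2-fold lower held enterocyte genes and a granzyme. Of 17097 genes, 29 (0.17%) were over 2-fold higher within both pairs and 9 (0.0526%) over 2-fold lower. The MR820 pair alone had 39 genes over 2-fold higher (0.228%) and 19 lower (0.111%), and the MR793 pair, with the array that stood apart, 998 higher (5.84%) and 2458 lower (14.4%). Of the 39 genes higher in MR820, 29 were also over 2-fold higher in MR793, which is 74.4% of 39 and 2.91% of 998. Of the 19 lower in MR820, 9 were over 2-fold lower in MR793, which is 47.4% of 19 and 0.366% of 2458. Across all genes the pair differences were uncorrelated or slightly opposed (Pearson r -0.0965 over 17097 genes, which are not independent replicates), and 61.2% of genes had opposite signs. The standard deviation of the pair differences was 0.860 in MR793 and 0.196 in MR820.

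With all arrays and 6 population means, limma called 0 of 17097 genes (0%) at an adjusted p under 0.05. An unadjusted p under 0.05 was reached by 661 genes, a smaller share than the 5% expected where no gene differs. With the biological replicate as a block limma called 5 genes, all higher (0.0292%), and 898 at an unadjusted p under 0.05, near that share. Without the array that stood apart it called 3 genes, all higher (0.0175%), and with both changes, which were combined after seeing the data, 14 genes, all higher (0.0819%). The median residual standard deviation was 0.220 with all arrays and 0.116 without that array. The 5 are Trpm5, Sh2d6, Clps, Dclk1 and Pnliprp2, and the 3 are Nkx2-2, Insm1 and Pla2g2f. The 14 are these 8 with Spink4, Vwa5b2, Atp2a3, Avil, Selenom and Reg4.

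**Figure D2:**
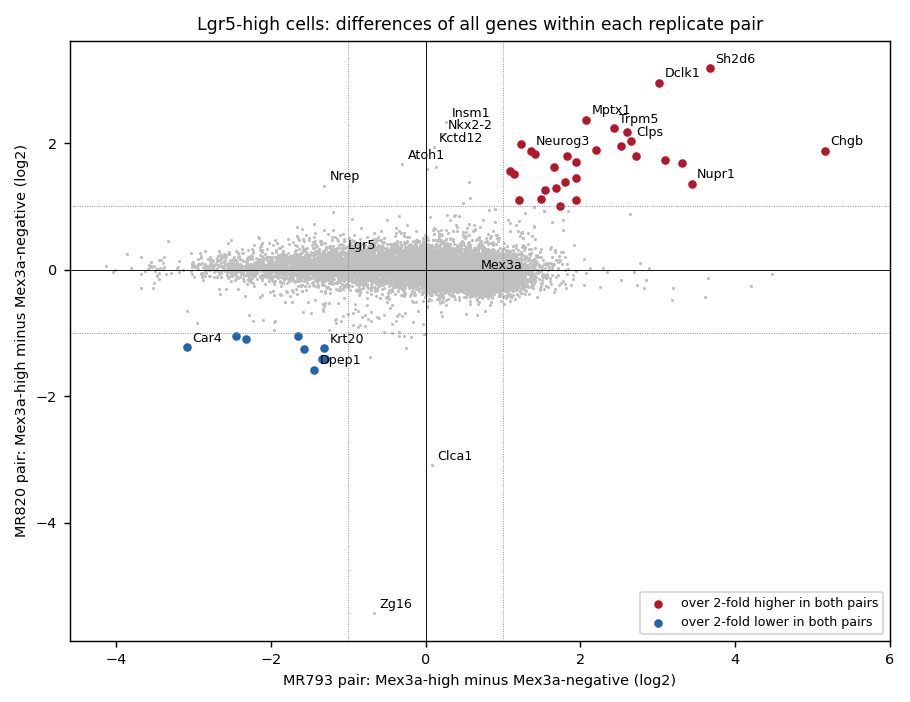
Difference of Mex3a-high minus Mex3a-negative (log2) within MR793 (horizontal axis) and within MR820 (vertical axis), 1 point per gene, Lgr5-high cells. Red points are the 29 genes over 2-fold higher in both pairs, blue points the 9 over 2-fold lower, and dotted lines mark a 2-fold difference; the cloud is wide along MR793 and narrow along MR820.

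Tuft cell genes held the largest differences that both pairs shared. Sh2d6, an SH2-domain adaptor found in tuft cells, had 9.62 (MR793) and 8.95 (MR820) in Mex3a-high cells, against 5.95 and 5.77 in Mex3a-negative cells. That is 12.8-fold and 9.11-fold higher, with a mean log2 difference of 3.43 (SE 0.38) and an adjusted p of 0.0526 in limma, or 0.0256 with the replicate block. Dclk1, a microtubule-associated kinase that marks tuft cells, had 8.12 and 8.00 in Mex3a-high cells, against 5.10 and 5.04 in Mex3a-negative cells. The groups lay far apart for both genes, and the replicates of Dclk1 lay close to each other. Dclk1 was 8.11-fold and 7.74-fold higher, with an adjusted p of 0.0526 in limma and 0.0416 with the block. All 8 probe sets of Dclk1 were higher in Mex3a-high cells in both pairs, the 7 dimmer ones by 0.17 to 2.20. Trpm5, the cation channel of taste and tuft cell signalling, had 8.30 and 7.55 against 5.87 and 5.31 (adjusted p = 0.337 in limma, 0.0256 with the block). Avil, advillin, which binds actin, had 9.02 and 8.74 in Mex3a-high cells and 6.81 and 6.85 in Mex3a-negative cells (adjusted p = 0.167 in limma, 0.0634 with the block). With the mean over all probe sets of a gene, the difference was 0.87 for Dclk1 and 1.47 for Trpm5 (adjusted p = 0.52 each), against 2.99 and 2.33 with the brightest probe set. Over all fits tried, the adjusted p ran up to 1 for each of the 4 genes. It was lowest, at 0.000079 to 0.000394, where the array that stood apart was the lone Mex3a-high array, a fit that called 10644 genes.

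Of the 22 tuft genes measured, 18 were higher in both pairs and 0 lower in both, where 23.7% of all genes were higher in both pairs and 15.1% lower in both. The list's median difference was 0.54 in MR793 and 0.78 in MR820, against 0.16 and -0.0031 over all genes. Pou2f3, the factor that specifies tuft cells, had 6.82 and 6.65 in Mex3a-high cells, against 5.68 and 5.14 in Mex3a-negative cells. Spib, an ETS-family factor, had 6.56 and 6.08 against 5.06 and 4.97. In the MR820 pair alone, Kctd12, a GABA-B receptor subunit, was 1.93 higher and Siglecf, a sialic acid-binding lectin, 1.59 higher, where the MR793 pair gave 0.11 and 0.02. The summed level of the list on the linear scale of the arrays was 3799 and 3483 in Mex3a-high cells and 1737 and 1612 in Mex3a-negative cells. Of the genes that make eicosanoids, lipid signals that tuft cells release, Alox5ap, which presents arachidonic acid to 5-lipoxygenase, had 6.96 and 6.75 against 5.01 and 5.05. Alox5 (1.40 and 0.69), Hpgds (0.90 and 0.76) and Ltc4s (0.84 and 0.50), enzymes of leukotriene and prostaglandin synthesis, were higher in both pairs. Of this list, 5 of 9 members measured were higher in both pairs and 1, the carbonyl reductase Cbr1, lower in both.

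The windows around the start sites of Dclk1, Sh2d6, Avil and Trpm5 are shown because these 4 tuft genes are described first above. They are the RefSeq sequence of GRCm38.p6, from 250 bases before to 50 after each annotated start, 5′ to 3′ on the gene's strand. Capitals mark the E-box CANNTG, the site class of factors such as Atoh1 and Neurog3, and ATGCAAA (or TTTGCAT on the other strand), a form of the octamer site of POU factors such as Pou2f3. The motifs did not overlap in these windows, and that of Trpm5 held neither.
Dclk1, chr3:55242114-55242413, plus strand: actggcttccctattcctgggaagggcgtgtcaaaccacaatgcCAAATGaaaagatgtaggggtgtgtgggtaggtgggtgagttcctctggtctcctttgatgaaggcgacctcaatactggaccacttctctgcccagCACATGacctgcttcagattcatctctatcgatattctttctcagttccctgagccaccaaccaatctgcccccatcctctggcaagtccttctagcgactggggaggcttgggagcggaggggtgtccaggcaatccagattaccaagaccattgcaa
Dclk1, chr3:55461478-55461777, plus strand: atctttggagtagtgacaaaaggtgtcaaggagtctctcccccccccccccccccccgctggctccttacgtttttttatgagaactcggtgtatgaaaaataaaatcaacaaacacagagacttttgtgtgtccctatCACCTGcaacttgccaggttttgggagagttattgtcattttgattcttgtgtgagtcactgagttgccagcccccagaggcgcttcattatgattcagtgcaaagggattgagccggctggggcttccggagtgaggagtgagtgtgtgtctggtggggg
Sh2d6, chr6:72519987-72520286, minus strand: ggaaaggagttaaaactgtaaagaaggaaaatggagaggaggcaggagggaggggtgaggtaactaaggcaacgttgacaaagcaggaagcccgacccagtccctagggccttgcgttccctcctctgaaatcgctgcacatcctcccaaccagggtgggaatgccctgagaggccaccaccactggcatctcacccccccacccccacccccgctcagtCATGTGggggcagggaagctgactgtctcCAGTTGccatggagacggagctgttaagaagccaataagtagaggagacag
Avil, chr10:127000459-127000758, plus strand: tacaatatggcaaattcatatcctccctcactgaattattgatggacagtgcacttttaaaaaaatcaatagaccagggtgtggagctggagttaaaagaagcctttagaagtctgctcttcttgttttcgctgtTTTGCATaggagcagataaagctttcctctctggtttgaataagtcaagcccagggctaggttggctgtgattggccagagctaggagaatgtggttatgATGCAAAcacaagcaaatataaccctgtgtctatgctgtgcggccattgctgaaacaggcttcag
Trpm5, chr7:143094593-143094892, minus strand: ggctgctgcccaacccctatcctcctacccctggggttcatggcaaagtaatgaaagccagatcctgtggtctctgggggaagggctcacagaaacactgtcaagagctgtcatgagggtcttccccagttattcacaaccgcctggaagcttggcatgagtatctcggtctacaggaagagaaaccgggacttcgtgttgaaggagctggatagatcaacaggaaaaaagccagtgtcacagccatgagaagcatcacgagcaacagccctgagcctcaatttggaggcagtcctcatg
Of the 29 genes over 2-fold higher in both pairs, 22 had such a window, 25 windows in all. CANNTG stood in 20 of them (80%), against 72.3% of the 32851 mouse windows of this length that were searched. ATGCAAA stood in 2 of them (8%), those of Avil and Tuba1a, against 4.63% of the windows searched. The windows of a whole chromosome were left out of these counts. A match of letters describes the window and is not evidence of binding.

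About as many endocrine genes were higher in both pairs as were not, where 23.7% of all genes, over all levels, were higher in both. The endocrine lists are dim, with median levels of 5.55 to 5.88 in Mex3a-negative cells. Dim genes tended to be higher in MR793, with medians of 0.33 in quartile 1 of level and 0.48 in quartile 2. The part of this in the endocrine counts was not tested. The size of the difference often differed between the pairs. With all arrays limma called 0 of them, as it called 0 of all 17097 genes. Neurog3, the factor that starts the endocrine fate, had 8.32 and 8.29 in Mex3a-high cells, against 6.96 and 6.41 in Mex3a-negative cells, with no overlap and an adjusted p of 0.505 in limma. Its other probe set had 6.34 and 9.08 against 5.74 and 5.06. Nkx2-2 and Insm1, factors that act after Neurog3, had their difference in MR820: Nkx2-2 had 4.91 and 6.88 in Mex3a-high cells against 4.69 and 4.74 in Mex3a-negative cells. Insm1 had 6.11 and 8.28 against 5.84 and 5.95. Without the array that stood apart, limma gave an adjusted p of 0.000573 for Nkx2-2 (difference 2.16) and 0.0307 for Insm1 (difference 2.38), and with all arrays 0.505 for each. The lone Mex3a-high array is assumed there to vary like the arrays of the other populations, and over all fits tried the adjusted p ran from 0.000271 to 1 for Nkx2-2 and from 0.00378 to 1 for Insm1.

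Chgb, chromogranin B of the hormone granules, had 11.52 and 10.67 in Mex3a-high cells, against 6.36 and 8.79 in Mex3a-negative cells. Its Mex3a-negative arrays were themselves far apart, and it was 35.8-fold higher in MR793 and 3.67-fold in MR820. Chga, chromogranin A, was 1.77 and 0.63 higher, and Tph1, the enzyme that starts serotonin synthesis, 1.53 and 0.92 higher. Of the granin and prohormone processing list, 10 of 19 members were higher in both pairs and 0 lower in both, with medians of 0.66 in MR793 and 0.30 in MR820. Of the hormones, 7 of 14 were higher in both pairs and 1, Cck, lower, with a median of 0.77 in MR793 and 0.00 in MR820. In MR820 alone 7 of 14 hormones were higher, where 49.1% of all genes were. Gcg, which encodes glucagon-like peptides, was 1.77 and 0.78 higher and Tac1, the precursor of substance P, 0.56 and 1.38 higher, while Sst (somatostatin) was 2.77 higher in MR793 and 0.10 in MR820. The other, dimmer probe set of Tac1 was 1.934 higher in MR793 and 0.073 in MR820. The list of endocrine transcription factors had 8 of 15 members higher in both pairs, 0 lower in both, and medians of 0.27 and 0.15.

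Most of the Paneth cell genes measured were higher in both pairs. Mmp7, the protease that activates defensins in mice, had 11.03 and 10.76 in Mex3a-high cells, against 8.31 and 8.96 in Mex3a-negative cells, without overlap (adjusted p = 0.386 in limma, 0.252 with the block). Mptx1, a mucosal pentraxin, had 9.69 and 9.75 against 7.62 and 7.38. Defa21, an antimicrobial defensin whose probes may also read related defensins, had 12.34 and 11.76 against 10.54 and 10.37. Lyz1, lysozyme, was 1.26 and 0.50 higher and Itln1, intelectin, 1.40 and 1.00 higher. Of 8 Paneth genes measured, of 20 listed, 6 were higher in both pairs and 0 lower in both, where 23.7% and 15.1% of all genes were. The Paneth medians were 1.60 and 1.18, against 0.16 and -0.0031 over all genes. The list was chosen with earlier results of these data known, and the 6 include Nupr1, a stress-induced chromatin protein.

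Genes of fat digestion were among the highest. Clps, colipase, which anchors lipase to fat droplets, had 12.12 and 11.17 in Mex3a-high cells, against 9.47 and 9.14 in Mex3a-negative cells (adjusted p = 0.505 in limma, 0.0256 with the block). Pnliprp2, a lipase, had 10.43 and 9.56 against 7.83 and 7.39 (adjusted p = 0.505, 0.0462 with the block). Pla2g2f, a secreted phospholipase, had 7.37 and 8.23 against 5.95 and 6.41. The other probe set of Pla2g2f was 2.185 and 0.772 higher, so under 2-fold in MR820. Other lipases, Pnliprp1 and Pla2g10, were 0.90 and 0.57 higher in MR793 and 0.04 and 0.03 in MR820. Reg4, a secreted lectin of secretory cells, had 11.94 and 11.33 in Mex3a-high cells, against 9.41 and 9.38 in Mex3a-negative cells (adjusted p = 0.505, 0.165 with the block). Over all fits the adjusted p of these 3 genes ran up to 1, and its lowest values, 0.00164 for Clps, 0.0012 for Pnliprp2 and 0.00841 for Reg4, came where the array that stood apart was the lone Mex3a-high array. The pancreatic acinar list, a set of markers of a tissue that also makes colipase, had a summed linear level of 858 and 474 in Mex3a-high cells and 513 and 506 in Mex3a-negative cells. Of its 11 members, 3 were higher in both pairs, where 23.7% of all genes were.

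Goblet cell genes went in both directions. Spink4, a secreted protease inhibitor, had 12.93 and 12.03 in Mex3a-high cells, against 10.98 and 10.94 in Mex3a-negative cells, and Ccl6 and Ccl9, chemokines, were over 2-fold higher in both pairs. The other, dimmer probe set of Ccl9 was 0.249 and 0.284 higher. Spdef, a factor of goblet and Paneth cell maturation, was 1.16 and 0.71 higher. Zg16, a lectin of goblet granules, had 10.80 and 5.86 in Mex3a-high cells, against 11.46 and 11.29 in Mex3a-negative cells. The Mex3a-low, Lgr5-high arrays split in the same way, at 11.18 and 5.16, and the other probe set of Zg16 had 7.98 and 5.59 in Mex3a-high cells and 9.39 and 9.16 in Mex3a-negative cells. Clca1, a secreted metalloprotease of mucus, had 9.67 and 6.61 against 9.60 and 9.70. Among the Lgr5-high arrays the low values of Zg16 and Clca1 lay in MR820, on 2 strips, and their source was not tested. Of 18 goblet genes, 12 were higher in both pairs and 2, Zg16 and Fcgbp, lower, where 23.7% and 15.1% of all genes were. The goblet medians were 0.51 and 0.18, against 0.16 and -0.0031 over all genes. Tff3, the abundant trefoil peptide of goblet cells, was 0.04 and 0.27 higher.

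Genes of the secretory fate list were all higher in MR820 and mixed in sign in MR793. Hepacam2, an adhesion molecule of secretory cells, had 6.51 and 7.10 in Mex3a-high cells, against 5.42 and 5.54 in Mex3a-negative cells. Bhlha15 (Mist1), a factor of secretory capacity, was 1.29 and 0.90 higher, Sox4, a factor of secretory precursors, 1.32 and 0.57, and Dll4, a Notch ligand, 0.64 and 0.65. Of the 5 probe sets of Sox4, 1 had the opposite sign in MR793, at -2.77, and all 5 were higher in MR820. Atoh1 had 6.37 and 8.20 against 6.67 and 6.54, a difference of -0.30 in MR793 and 1.67 in MR820. All 13 secretory fate genes were higher in MR820, where 49.1% of all genes were, and 8 were higher in both pairs, where 23.7% of all genes were. The same 8 are those higher in MR793, and 59.5% of all genes were higher in that pair. The Notch receptors and targets were 3 higher and 3 lower in both pairs among 13, with medians of 0.18 and -0.08.

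**Figure D3:**
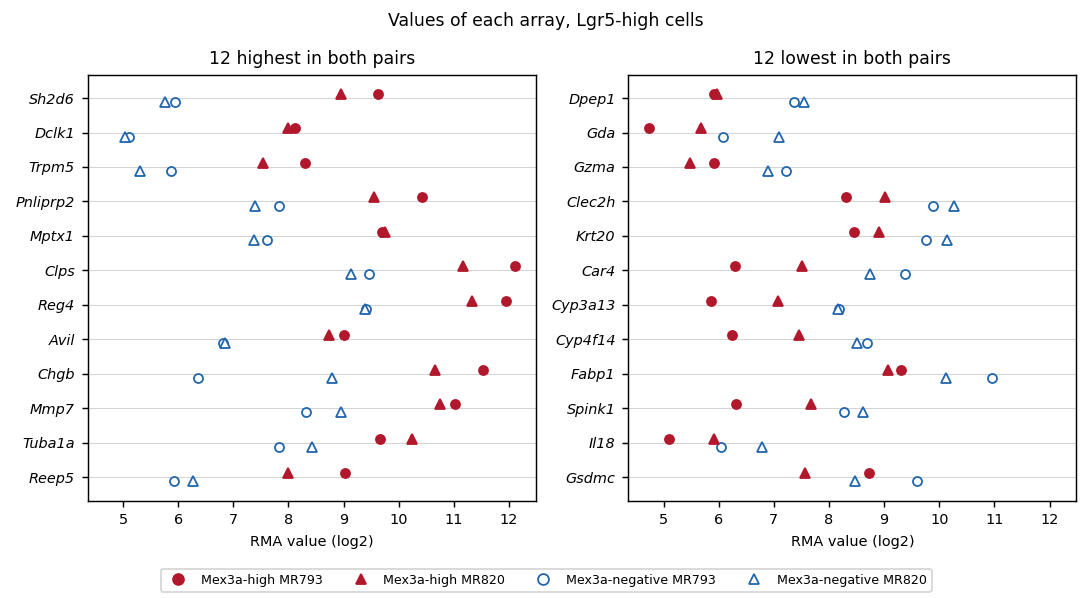
RMA values (log2, horizontal axis) on each of the 4 arrays for the 12 highest (left) and 12 lowest (right) genes by the smaller of their 2 pair differences. Filled red symbols are Mex3a-high arrays and open blue symbols Mex3a-negative arrays, circles MR793 and triangles MR820; for Dclk1 the Mex3a-high symbols lie at 8.12 and 8.00 and the Mex3a-negative ones at 5.10 and 5.04.

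Enterocyte genes were lower in Mex3a-high cells. Krt20, a keratin of differentiated villus cells, had 8.45 and 8.90 in Mex3a-high cells, against 9.76 and 10.14 in Mex3a-negative cells, without overlap (adjusted p = 0.505, limma). Fabp1, a fatty acid carrier, had 9.31 and 9.08 against 10.96 and 10.12, and Clec2h, a lectin-like receptor of the villus, had 8.31 and 9.01 against 9.88 and 10.27. Dpep1, a membrane dipeptidase, had 5.92 and 5.97 against 7.36 and 7.55. Of 26 enterocyte genes measured, 23 were lower in both pairs and 1, the aminopeptidase Xpnpep2, higher, against 15.1% of all genes lower in both, with medians of -0.61 and -0.66 against 0.16 and -0.0031 over all genes. The summed linear level was 18304 and 17861 in Mex3a-high cells and 29016 and 27085 in Mex3a-negative cells. Mep1b, a brush border protease, differed by -0.72 in MR793 and -1.38 in MR820, and Treh, which splits trehalose, by -0.85 and -1.15. The 9 genes over 2-fold lower in both pairs also held Car4, a carbonic anhydrase (6.29 and 7.51 against 9.38 and 8.73), the cytochrome P450 genes Cyp3a13 and Cyp4f14, and Gda, guanine deaminase. Some other probe sets of these genes were lower by less than 2-fold. They had -0.229 and -0.537 for Car4, -0.625 and -0.905 for Fabp1, and -0.696 and -0.859 or -0.041 and -0.406 for Gda. For Clec2h another had -0.638 and -0.931, and a further one -2.032 and -1.239. With the mean of probe sets 7 genes were over 2-fold lower in both pairs, in place of 9. Gzma, granzyme A of cytotoxic lymphocytes, had 5.92 and 5.47 in Mex3a-high cells, against 7.21 and 6.89 in Mex3a-negative cells.

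Just inside the 2-fold limit for higher genes lay Hepacam2 and Ccl9, with smaller pair differences of 1.09 and 1.00, and just outside it Itln1 (0.996) and Tph1 (0.92). For lower genes, Fabp1 and Cyp4f14 lay just inside at -1.05 and Spink1 (-0.94) and Il18 (-0.87) just outside.

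**Figure D4:**
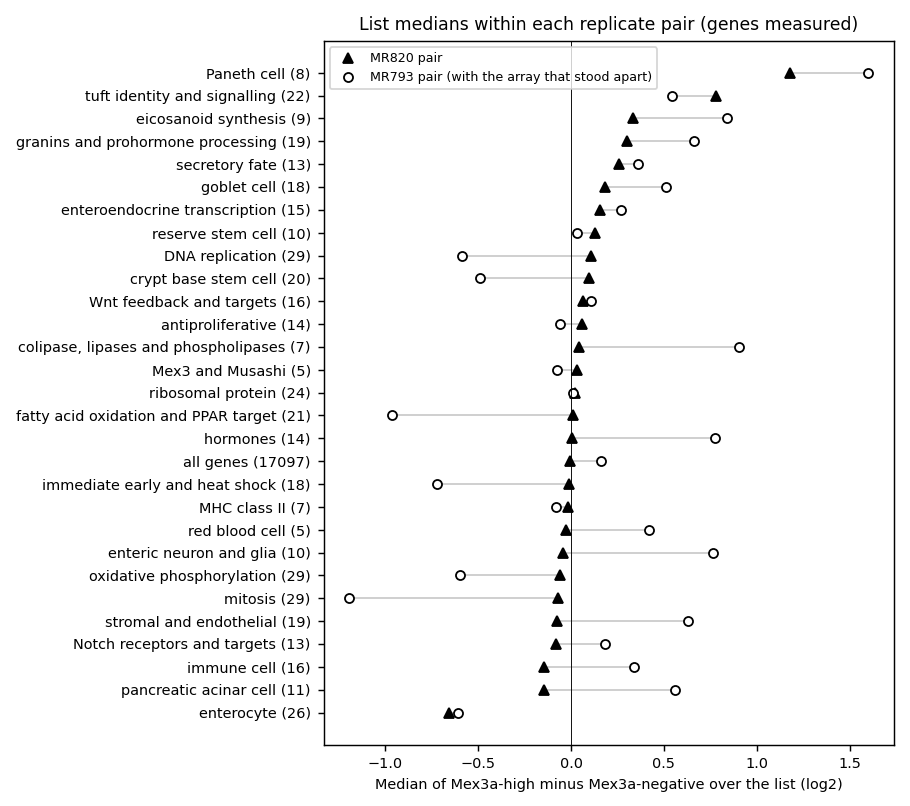
Median of Mex3a-high minus Mex3a-negative (log2, horizontal axis) for each gene list, with the number of genes measured in brackets; triangles are the MR820 pair and open circles the MR793 pair. The tuft list lies at 0.78 and 0.54 and the enterocyte list at -0.66 and -0.61, while mitosis and oxidative phosphorylation lie below 0 mainly in MR793.

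The crypt base stem cell list had no common direction in the pairs. Its median was -0.49 in MR793 and 0.10 in MR820. Of its 20 genes, 3 were higher and 6 lower in both pairs, where 23.7% and 15.1% of all genes were. Msi1, an RNA-binding protein of stem cells, was 1.00 and 0.25 higher, and Smoc2, a matrix protein of the crypt base, 0.48 and 0.17 higher. In MR793 another probe set of Msi1 had -0.80 and the other of Smoc2 -0.52. Of the genes lower in both pairs, the water channel Aqp4 had -1.20 and -0.15 and Fstl1, a follistatin-like protein, -0.16 and -0.13. The other probe set of Fstl1 was higher in both pairs, at 0.774 and 0.067. Other probe sets of Aqp4 had -0.496 and 0.068 or -1.411 and -0.074. Wnt targets had medians of 0.11 and 0.07, and Wnt3, a Wnt ligand that Paneth cells make, was 0.54 and 0.66 higher. Of the genes described in reserve stem cells, 3 of 10 were higher in both pairs and 0 lower, and Hopx, a homeobox cofactor, differed by -1.37 in MR793 and 0.13 in MR820.

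Cell cycle and respiration genes had large differences in MR793 and small ones in MR820. The mitosis list had a median of -1.19 in MR793 and -0.07 in MR820. Of its 29 genes, 21 were lower in both pairs, where 15.1% of all genes, over all levels, were. The list is bright, with median levels of 9.57 and 9.24 in Mex3a-negative cells, and the brightest quartile of genes had an MR793 median of -0.65. In MR820 the mitosis differences were small: Bub1, a checkpoint kinase, differed by -1.65 and -0.26 and Cdk1, the mitotic kinase, by -0.33 and -0.20. Mki67, a marker of dividing cells, had 11.10 and 10.74 in Mex3a-high cells and 11.27 and 10.86 in Mex3a-negative cells. DNA replication genes had medians of -0.59 and 0.10, and 24 of 29 were higher in MR820 (49.1% of all genes), by at most 0.39 (Chaf1b, a histone chaperone). Oxidative phosphorylation had medians of -0.60 and -0.06, fatty acid oxidation -0.96 and 0.01 and ribosomal proteins 0.01 and 0.02, and immediate early and heat shock genes, which respond to handling of cells, had -0.72 and -0.01. Cdkn1c, a CDK inhibitor, was 0.55 and 0.43 higher and Cdkn2b, another, differed by -0.54 and -0.98. The part of the array that stood apart in the MR793 medians was not tested, and the MR820 medians do not hold that array.

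Lists of other cell types had positive medians in MR793 and medians under 0 in MR820. The immune list had medians of 0.34 in MR793 and -0.15 in MR820, the stromal and endothelial list 0.63 and -0.07, the enteric neuron and glia list 0.76 and -0.04 and the red blood cell list 0.42 and -0.03. Ptprc, the leukocyte antigen CD45, had 4.24 and 4.13 in Mex3a-high cells and 4.07 and 4.18 in Mex3a-negative cells. Col1a1, a collagen of fibroblasts, had 7.32 and 6.36 against 6.56 and 6.44. Of 16 immune genes 3 were higher and 2 lower in both pairs, where 23.7% and 15.1% of all genes were. The 2 are Gzma and Gzmb (-0.27 and -0.69), another granzyme. The summed linear level of that list was 9507 and 9041 in Mex3a-high cells and 6966 and 7024 in Mex3a-negative cells, most of it Lyz2, a lysozyme of myeloid and Paneth cells (12.98 and 13.00 against 12.50 and 12.54). The part of lymphocytes in the difference of Gzma was not tested.

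Mex3a-low, Lgr5-high cells lay between the other 2 gates for most of the higher genes. Of the 29, the Mex3a-low level lay between the Mex3a-high and Mex3a-negative levels in 28 within MR793, in 24 within MR820 and in 23 within both. Mmp7 had 11.03 and 10.76 in Mex3a-high cells, 10.33 and 10.24 in Mex3a-low cells and 8.31 and 8.96 in Mex3a-negative cells. Dclk1 was closer to the negative gate, with a mean of 5.57 ± 0.036 in Mex3a-low cells (SD, n = 2). Of the 9 lower genes 0 were between in both replicates, and Krt20 was lowest in Mex3a-low cells, at 7.03 and 7.56. These counts share the Mex3a-high and Mex3a-negative arrays with the choice of the genes.

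**Figure D5:**
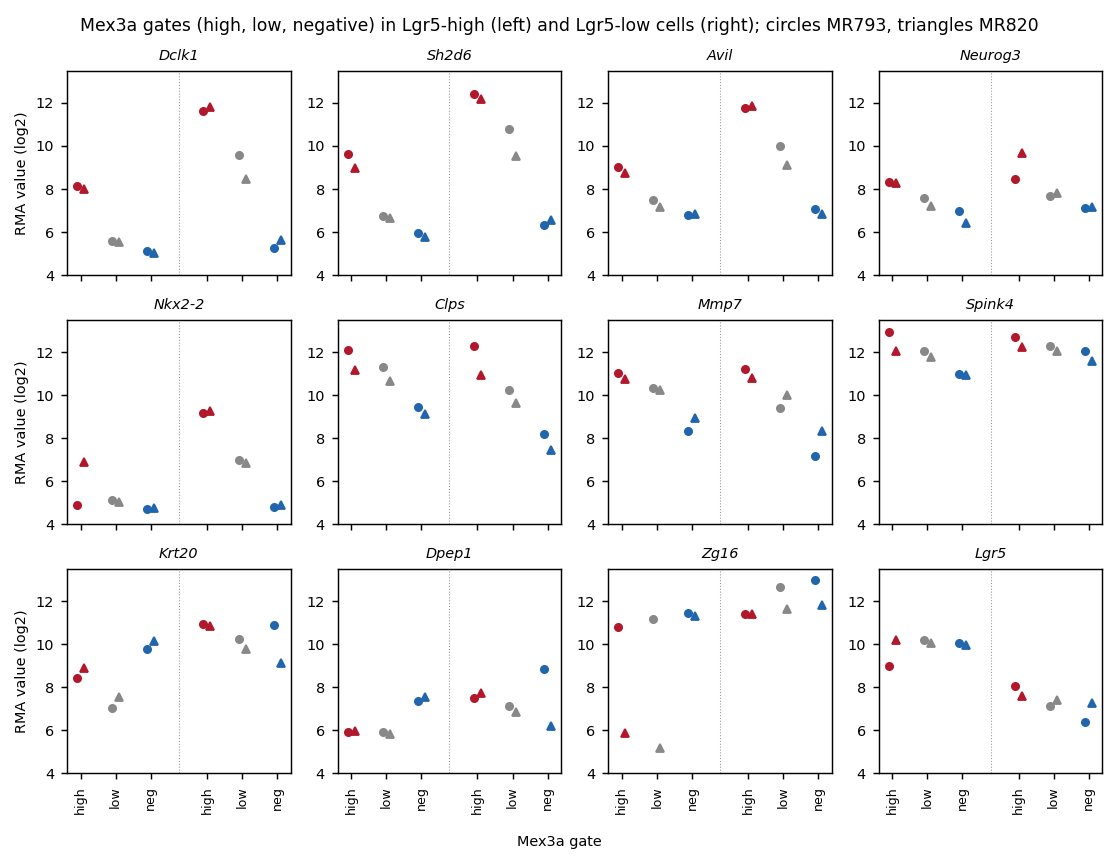
RMA values (log2, vertical axis) of 12 genes in the 6 populations, with the Mex3a gates high, low and negative (horizontal axis) in Lgr5-high cells left and Lgr5-low cells right of the dotted line; circles are MR793 and triangles MR820. Dclk1 lies at 8.12 and 8.00 in Mex3a-high, Lgr5-high cells and at 11.64 and 11.81 in Mex3a-high, Lgr5-low cells, and Zg16 is low in 2 MR820 arrays.

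The same genes were set against Lgr5-low cells, whose differences were not used to choose them, although the probe set of each gene was the brightest over all 12 arrays, these included. All 29 higher genes had a positive Mex3a-high minus Mex3a-negative difference within both Lgr5-low pairs, where 29% of all genes did, and limma called 22 of the 29 higher there, against 1.71% of all genes. Of the 9 lower genes, 0 were lower in both Lgr5-low pairs, against 35% of all genes, and 3 (Fabp1, Gzma and Krt20) were higher in both. The enterocyte list had Lgr5-low medians of -0.78 in MR793 and 0.68 in MR820. Dclk1 had 11.64 and 11.81 in Mex3a-high, Lgr5-low cells and 5.27 and 5.63 in Mex3a-negative, Lgr5-low cells, a difference of 6.27 (adjusted p = 0.000032, limma). The Lgr5-high minus Lgr5-low difference was -3.29 for Dclk1 (adjusted p = 0.0134).

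Across all genes the difference between the gates was called for 68 (0.398%), and in all 68 the Lgr5-high difference was the smaller or more negative; with array weights 0 were called and with the strip as a block 141. Among the 29 these were Alox5ap, Avil, Dclk1, Fut2, Spib and Vwa5b2, and in the tuft list 11 of 22 were called. Neurog3 differed by 1.62 in Lgr5-high and 1.93 in Lgr5-low cells (adjusted p = 0.872 for the difference), and Mmp7 by 2.26 and 3.25 (adjusted p = 0.865). Spink4 differed by 1.52 in Lgr5-high cells and 0.64 in Lgr5-low cells (adjusted p = 0.865). A p that misses the threshold does not show that the gates are alike.

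Of the genes with opposite signs, Nrep, a neuronal regeneration-related protein listed with the tuft genes, was over 2-fold lower in MR793 and over 2-fold higher in MR820. It had 6.25 and 8.82 in Mex3a-high cells and 7.56 and 7.50 in Mex3a-negative cells, and was the only gene past 2-fold in opposite directions. Ndrg1, a stress-response protein, differed by -1.19 in MR793 and 0.91 in MR820, and Nlrp9b, an inflammasome receptor, by 0.67 and -0.71.

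Beyond the lists, 9 of the 29 higher genes belong to none of them. Tuba1a, an alpha-tubulin, had 9.66 and 10.24 in Mex3a-high cells, against 7.83 and 8.43 in Mex3a-negative cells, and Reep5, which shapes the endoplasmic reticulum, 9.02 and 8.00 against 5.92 and 6.26. Other probe sets of Reep5 were 2.129 and 1.411 or 0.709 and 0.135 higher. Rnase1, a secreted ribonuclease, was 3.32 and 1.68 higher. Atp2a3, a calcium pump of the endoplasmic reticulum, had 10.40 and 10.56 against 8.75 and 8.93, and Selenom, a selenoprotein of that compartment, 8.86 and 8.84 against 6.91 and 7.39. Fut2, which adds fucose to surface glycans, was 1.55 and 1.25 higher, Dpysl2, a cytoskeleton-binding protein, 1.21 and 1.11 and Vwa5b2 1.23 and 1.99. Nupr1, a stress-induced chromatin protein placed in the Paneth list, had 11.94 and 9.43 against 8.50 and 8.07, with the largest level on the array that stood apart. The other probe set of Nupr1 was 3.136 and 0.787 higher.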

How the data were processed

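RNA of 6 populations was measured on 12 arrays, 2 biological replicates each, and 4 arrays enter the comparison. Each probe set has a deposited log2 value that came from RMA by the authors (per the submitters' processing notes), in a version not given in the sources used here. Of 45141 probe sets, 28898 carry 1 gene symbol in the probe table, 551 several and 15692 are not listed; for each of 17097 genes the single-symbol probe set with the highest mean over 12 arrays was used. A dim probe set still has an RMA value, which compresses differences of dim genes, and the array number limits the precision.

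Genes were fitted with limma 3.58.1 in R 4.3.3 as 6 population means, with eBayes and a mean-variance trend, two-sided, with Benjamini-Hochberg adjustment over all genes. SE is limma's moderated standard error. In the main fit, p-values measure the spread between 2 replicates per population, pooled over the 6 populations, with any shift between MR793 and MR820 included. With the replicate block, a shift that the populations share is taken out. A population left with 1 array adds nothing to that spread. The labels' biological replicate pairs the arrays: replicate differences of 14 of 15 pairs of populations correlated over 0.1 (lowest -0.115, median 0.382), and of all 10 pairs without the Mex3a-high, Lgr5-high population (0.374 to 0.566).

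Members and the 28 gene lists (443 of 513 genes measured) were chosen with earlier results of these data known. Named genes are Mex3a, Lgr5, the 12 highest and 12 lowest by the smaller pair difference, the 6 highest and 6 lowest in MR820, 6 of opposite sign, genes called with the block or without the array that stood apart, and up to 4 per list. Genes outside this rule, chosen after their values were seen, are the remaining genes of the 29 and 9, the 14 called with both changes, and single list members such as Atoh1, Kctd12, Siglecf, Hopx, Mki67, Olfm4, Lyz1, Sst, Tff3, Ptprc and Col1a1. Alternatives were the replicate and the strip as blocks, array weights, quantile normalization again, centred arrays, a filter on low values, the mean of probe sets, no trend, only the 4 arrays, a fold of 1.5, and each array left out.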

Additional observations from a re-analysis of the deposited data

Results flagged for a closer look

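The difference of Mex3a-high minus Mex3a-negative was smaller in Lgr5-high than in Lgr5-low cells for 5 named genes, by a limma test of the difference between the gates itself. The Lgr5-high minus Lgr5-low difference was -3.29 for Dclk1 (adjusted p = 0.0134), -2.83 for Avil (0.0162) and -3.70 for Alox5ap (0.00997). Cdkn1c, a CDK inhibitor, had -3.51 (adjusted p = 0.0054), with differences of 0.49 in Lgr5-high and 4.00 in Lgr5-low cells. Ret, a receptor kinase also listed with enteric neurons, had -1.67 (adjusted p = 0.0209), with 0.39 and 2.07.

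Among 15588 probe sets that the probe table does not list, controls left out, 9 were over 2-fold higher in both pairs (0.0577%) and 4 over 2-fold lower (0.0257%). They have no gene name here.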

How the results depend on the processing

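With all arrays, limma called 0 genes in the Lgr5-high comparison. It called 5 with the replicate block, 1 with the strip as a block, 2 with centred arrays, 2 with the filter on low values and, in a fit added after seeing the data, 14 with the replicate block and the MR793 array that stood apart left out. Leaving out each array in turn gave 0 to 10644 genes: 10644 when its MR820 partner was dropped, so that the array that stood apart was alone in its population, 3 when that array itself was dropped, and 4 when either Mex3a-low array of the Lgr5-low gate was. The difference between the Lgr5 gates was called for 68 genes, for 141 with the strip as a block, 0 with array weights, 17 with the filter and 309 with the added fit. Dropping each array gave 18 to 8315 here: 8315 for that MR820 partner, 160 for the array that stood apart, and 18 to 31 for any Mex3a-negative array or the MR793 array of Mex3a-high, Lgr5-low cells. A fit of only the 4 arrays cannot give that difference. With 2 arrays per population, array weights gave both arrays of the Mex3a-high, Lgr5-high population the same weight of 0.0764.

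A fold of 1.5 gave 58 genes higher and 45 lower in both pairs, in place of 29 and 9, and the MR820 pair alone 19 lower. The mean of probe sets gave 25 higher and 7 lower in both pairs. The difference of Lgr5, -0.41 with all arrays, was 0.19 without the array that stood apart, 0.15 with the replicate block as well, and -1.02 without its MR820 partner. That of Atoh1, 0.68 with all arrays, was 1.60 and -0.23 under the first and the last of these. The medians of the crypt base and DNA replication lists, -0.23 and -0.26 with all arrays, were 0.15 and 0.13 without the array that stood apart. The other differences recomputed for single genes kept their sign, but with the mean of probe sets that of Dclk1 was 0.87 in place of 2.99 and that of Trpm5 1.47 in place of 2.33. With the replicate block the difference between the gates was called for 83 genes in place of 68, and the Lgr5-low comparison for 347 in place of 295, and the causes of these changes were not tested beyond the arrays named.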
